A study of Mus musculus with 3 samples.

Results

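The core circadian clock genes of F121-9 mouse embryonic stem (ES) cells are described here: Clock, Arntl, Per1, Per2, Per3, Cry1, Cry2, Nr1d1, Nr1d2 and Dbp. They were chosen by name, as the activators, repressors and classical output of the molecular clock, and are 10 of the 55536 genes in the tables. All 10 were found in the gene and transcript tables. F121-9 is an ES cell line from a cross of the Cast and 129 mouse strains. Total RNA was sequenced from 3 libraries, labelled as biological replicates at passage 14 with 400 ng of RNA each, and no treatment or genetic change is named. They form 1 group of 1 line, so groups cannot be compared, and no p-value below speaks for more than these 3 libraries. The spread among them may be technical. No hour of harvest or synchronisation of the cells is stated in the sources used here, so the levels below carry no information on rhythm.

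The mammalian clock is a transcriptional feedback loop with a daily period. CLOCK and BMAL1, the product of Arntl, bind E-box sequences as a pair and activate the Per and Cry genes, whose proteins then repress that pair. The nuclear receptors of Nr1d1 and Nr1d2 (REV-ERB alpha and beta) repress Arntl through ROR elements, and DBP activates genes through D-boxes. In cultured mouse ES cells the daily rhythm is known to be weak or absent and to appear as the cells differentiate.

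The letters of these feedback elements are shown first because the genes whose levels follow carry them in different sets in the reference genome. The alleles of the strains crossed in this line were not examined and may differ in these letters. RefSeq promoter windows, from 250 bases before to 50 bases after a start site, matched 9 of the 10 genes by symbol, in 13 windows on GRCm38.p6 (Per2 is named only). The letters searched on both strands were the E-box CACGTG, its variant CACGTT (the E-prime box), the D-box TTANGTAA, the ROR element TAGGTCA and the cAMP response element TGACGTCA. In the stretches below, read 5′ to 3′ on the strand of the gene, capitals mark these letters.
Cry1, chr10:85185089-85185153, minus strand: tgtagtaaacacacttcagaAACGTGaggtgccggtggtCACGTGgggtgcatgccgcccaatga
Cry2, chr2:92434210-92434255, minus strand: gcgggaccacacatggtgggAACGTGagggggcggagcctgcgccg
Per1, chr11:69098763-69098808, plus strand: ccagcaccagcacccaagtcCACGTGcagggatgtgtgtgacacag
Nr1d1, chr11:98775380-98775425, minus strand: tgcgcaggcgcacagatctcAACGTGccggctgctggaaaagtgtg
Per3, chr4:151044796-151044890, minus strand: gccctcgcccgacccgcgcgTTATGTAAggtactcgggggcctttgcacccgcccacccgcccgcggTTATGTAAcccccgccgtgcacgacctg
Arntl, chr7:113207531-113207557, plus strand: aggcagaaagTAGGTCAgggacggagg

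The 2 windows with an E-box belong to Cry1 and Per1, and 7.15% of all 32851 windows of that length hold the same letters. The E-prime box, read as AACGTG on these strands, was in 3 windows, those of Cry1, Cry2 and Nr1d1, against 4.68% of all windows. In Cry1 it begins at position -79 and the E-box at position -60 from the start site. Per3 holds the D-box at positions -205 and -158, both as TTATGTAA, and 2.32% of all windows hold a D-box. The ROR element of Arntl lies 30 bases after the second of its annotated start sites, within exon sequence, and occurs in 2.61% of all windows. No match overlapped another, and the cAMP response element, present in 1.79% of all windows, was in none of the 13. A match is a description of letters, and binding was not measured.

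The libraries held 9765384 to 10610782 estimated counts, of which the ERCC spike-ins took 1.74% to 1.97%. Where a library has 0 counts, up to 3 are allowed, which is 0.288 to 0.313 CPM (counts scaled to library size), for counting error only. Levels are given as RSEM-style TPM (a value per length, scaled to the same sum in every library) unless the kallisto-style tables are named, both after the columns those programs write. The count totals above are RSEM-style, and the kallisto-style tables held 17717726 to 19156106 estimated counts per library. The ES cell identity genes Pou5f1, Sox2, Nanog and Zfp42 were all expressed, with a summed level of 1615 to 1849 TPM per library. Of 6 fibroblast genes, which would mark feeder cells, 0 were expressed, their summed level was 1.39 to 2.36 TPM, and Col3a1, Postn and Lum had 0 counts. Thy1 was the highest of the 6, at 1.40, 1.34 and 0.43 TPM. In the kallisto-style tables Thy1 was above a TPM of 1 in every library (2.04, 1.40 and 1.53). Of 6 genes of differentiating cells 2 were expressed, T at 4.86 ± 1.70 and Sox17 at 1.55 ± 0.528 TPM, with a summed level of 6.57 to 8.65 TPM, and the part of such cells in the clock gene levels was not tested. In such bulk samples, fewer cells with a transcript and less RNA per cell cannot be told apart.

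Of the 10 clock genes 8 were expressed, which here means that every library reached a TPM of 1. The same held for 23.6% of all genes and 52.1% of protein-coding genes. Per2 and Per3 fell short. The order from highest to lowest mean was Cry1, Nr1d2, Cry2, Arntl, Dbp, Clock, Nr1d1, Per1, Per3 and Per2. The 8 expressed genes had a median of 8.93 TPM, against 19.7 TPM for the 11478 expressed protein-coding genes, and only Cry1 lay above that median. Together the 10 genes came to 86.6 to 94.5 TPM per library.

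**Figure D1:**
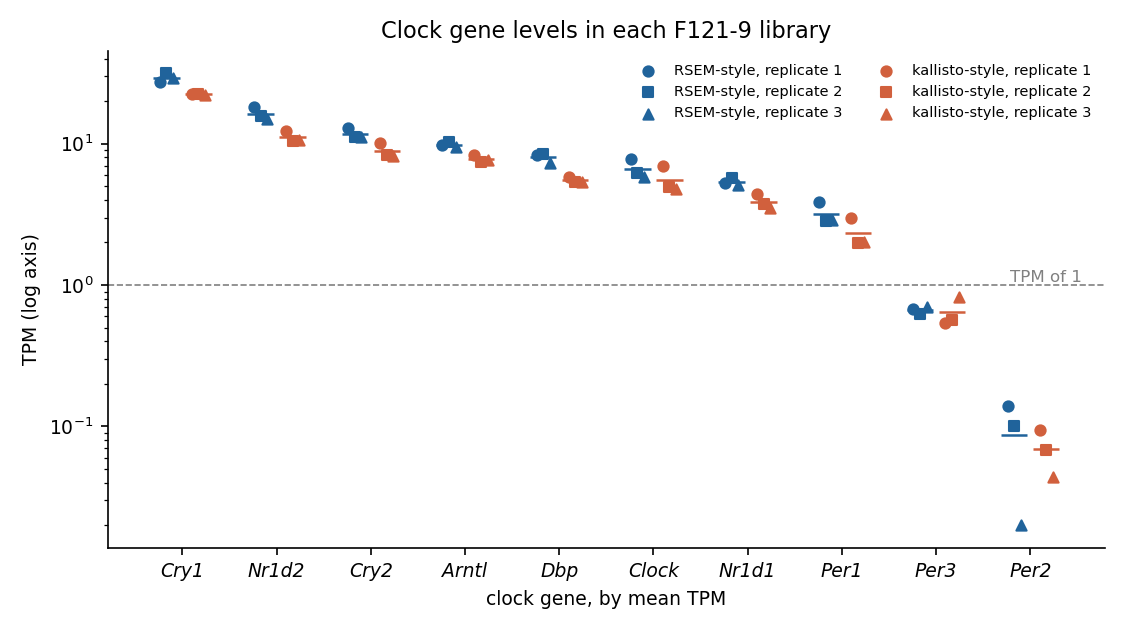
TPM of each clock gene (log axis) in replicates 1, 2 and 3, by the RSEM-style tables (blue) and the kallisto-style tables (orange), with horizontal bars at the means. Cry1 stood highest in all 3 libraries of both tables, and Per3 and Per2 lay below the dashed line at a TPM of 1.

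Clock encodes the histone-acetylating activator of the loop (ENSMUSG00000029238.11, chromosome 5, 76209868 to 76304792, minus strand, mm10). It had 7.75, 6.25 and 5.78 TPM in replicates 1, 2 and 3, a mean of 6.59 ± 1.03 (SD, n = 3), on 504, 374 and 344 counts. Replicate 1 was the highest library. Arntl, the BMAL1 gene (ENSMUSG00000055116.8, chromosome 7, 113207465 to 113314126, plus strand), had 9.76, 10.2 and 9.45 TPM, a mean of 9.81 ± 0.393. Its coefficient of variation was 4%, and all its libraries stood above all libraries of Clock. The ratio of Arntl to its partner Clock was 1.26, 1.64 and 1.64 in the 3 libraries.

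Cry1 encodes a cryptochrome, a strong repressor of that pair (ENSMUSG00000020038.10, chromosome 10, 85131700 to 85185064, minus strand). It had 27.4, 31.4 and 29.3 TPM, a mean of 29.4 ± 2.01, above 60.8% of expressed protein-coding genes. Its paralog Cry2 (ENSMUSG00000068742.11, chromosome 2, 92403646 to 92434043, minus strand) had 13, 11.1 and 11.1 TPM, a mean of 11.7 ± 1.10. Every Cry1 library stood above every Cry2 library, and the ratio of Cry1 to Cry2 was 2.11, 2.84 and 2.63. Replicate 1 was the lowest library for Cry1 and the highest for Cry2.

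The Period genes, whose proteins carry the cryptochromes into the nucleus, were the lowest 3 of the set. Per1 (ENSMUSG00000020893.17, chromosome 11, 69095217 to 69109960, plus strand) had 3.88, 2.82 and 2.89 TPM, a mean of 3.20 ± 0.593, with replicate 1 above the other libraries. Per3 (ENSMUSG00000028957.12, chromosome 4, 151003652 to 151044665, minus strand) had 0.680, 0.620 and 0.700 TPM, on 19, 18 and 17 counts. Per1 exceeded Per3 by a mean ratio of 4.79 ± 0.817 over the libraries. Per2 (ENSMUSG00000055866.9, chromosome 1, 91415982 to 91459324, minus strand) had 0.14, 0.10 and 0.02 TPM on 6, 4 and 1 counts. Its total of 11 counts has an exact 95% Poisson interval of 5.49 to 19.7 counts, which covers counting error only. The interval is for the libraries pooled and does not bear on differences between them. With counts this low, no order of the libraries is drawn for Per2. Summed TPM was 41.1 ± 1.21 for the cryptochromes and 3.95 ± 0.651 for the Period genes, and the ratio of these sums was 8.60, 12.01 and 11.19 in replicates 1, 2 and 3.

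The REV-ERB genes encode haem-binding repressors of Arntl. Nr1d2 (ENSMUSG00000021775.11, chromosome 14, 18204054 to 18239127, minus strand) had 18.2, 15.7 and 14.99 TPM, a mean of 16.3 ± 1.69, and was the second highest of the set. Nr1d1 (ENSMUSG00000020889.11, chromosome 11, 98767932 to 98775333, minus strand) had 5.30, 5.72 and 5.06 TPM, a mean of 5.36 ± 0.334. The groups of libraries did not overlap, and the ratio of Nr1d2 to Nr1d1 was 3.44, 2.75 and 2.96. Dbp, a PAR bZIP activator whose transcription is driven by E-boxes (ENSMUSG00000059824.12, chromosome 7, 45705088 to 45710203, plus strand), had 8.38, 8.45 and 7.31 TPM, a mean of 8.05 ± 0.639. Replicate 3 was its lowest library. The promoter windows of Dbp and Nr1d2 held none of the letters searched.

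Of the 9 pairs of neighbours in this order, 1 pair overlapped between libraries, Dbp and Clock, whose means differed by 0.26 ± 0.144 (SD) on the log2(TPM + 1) scale. The values of the other pairs did not overlap, with mean log2 differences from 0.23 (Cry2 over Arntl) to 1.32 (Per1 over Per3). Compared within a library, Dbp stood above Clock in 3 of 3, and the other pairs kept their order in 3 of 3 too. Every pair gave p = 0.25 when signs were flipped in an exact permutation test (two-sided), the smallest p that 3 libraries allow, so no step of the order can pass 0.05. In the kallisto-style tables Clock (5.57 ± 1.22 TPM) and Dbp (5.51 ± 0.277) stood in the other order by their means, with Clock above Dbp in replicate 1 only. Cry2 overlapped with Arntl there too.

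The 3 protein-coding genes nearest to Cry1 in log2(TPM + 1) over the 3 libraries, by Euclidean distance, were Xlr (0.0249), Arxes2 (0.0409) and Ube2e1 (0.0479). They stood at 29.3 ± 1.69, 29.2 ± 2.21 and 29.1 ± 1.46 TPM. With 3 libraries, likeness here reflects mostly the same mean level.

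The spread of the clock genes between libraries was tested in 9 of the 10, since Per2 fell below the count filter. Of these 9, edgeR's quasi-likelihood fit found 0 more variable than the dispersion trend (Benjamini-Hochberg adjusted), against 0.0373% of all 13391 genes tested. In the edgeR fit 1 of the 9, Clock, had an unadjusted p under 0.05, with an edgeR adjusted p = 0.987. By limma-voom 0 of the 9 were called too, with 1 at an unadjusted p under 0.05. A second test compared each gene with counting noise alone, by chi-square against Poisson with 2 degrees of freedom. It called 1 of the 9 genes, against 12.4% of all genes tested. That gene was Clock, with TMM-scaled CPM of 48.1, 39.4 and 34.7 in replicates 1, 2 and 3 (chi-square adjusted p = 0.000215 after edgeR's TMM scaling). Clock was called with replicate 2 or 3 left out (adjusted p = 0.0001 and 0.0310) but not without replicate 1 (0.762). The next lowest value was that of Cry1, at 56.5, 66.5 and 62.9 CPM (chi-square adjusted p = 0.0942 with TMM scaling, and 0.0464 without replicate 3). With ERCC in place of TMM scaling, Clock, Per1, Cry2 and Nr1d2 were called, and so were 34.7% of all genes.

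**Figure D2:**
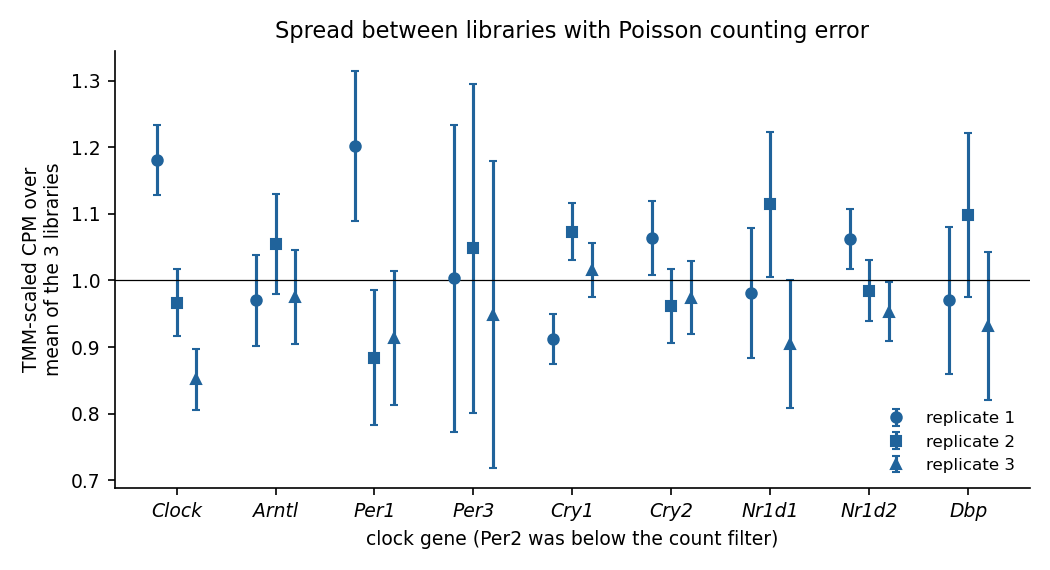
TMM-scaled CPM of the 9 tested clock genes in each library, divided by the mean of the 3 libraries, with bars of 1 Poisson standard error from the counts. Clock in replicate 1 (48.1 CPM) lies above its other libraries (39.4 and 34.7 CPM) by more than these bars, while Arntl, Per3 and Dbp overlap.

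Replicate 1 differed from the other libraries along transcript length, and the clock genes are set beside that. Over 13113 expressed genes, the log2(TPM + 1) of replicate 1 minus that of the mean of replicates 2 and 3 had a median of 0.05. It was -0.02 in the 25% of genes with the shortest transcripts and 0.13 in the 25% with the longest, from 3466 bases up, where 17.8% of genes were beyond counting noise. The 8 expressed clock genes had a median of 0.15, and 5 of them were higher in replicate 1, or 62.5% against 61.7% of all expressed genes. The median over the 8 was 0.05 with TMM-scaled CPM. The 4 expressed clock genes among the longest were all higher, as were 79.7% of all genes of that length: Clock by 0.32 (8394 bases), Per1 by 0.34 (3969), Nr1d2 by 0.23 (4233) and Cry2 by 0.21 (3926). They were higher in replicate 1 with TMM, median-of-ratios and ERCC scaling of the counts too. The fifth, Dbp, of 1455 bases, was higher by 0.08 in TPM and by 0.12 with ERCC scaling, and stood at -0.06 with TMM and median-of-ratios scaling. Cry1, of 3004 bases, stood at -0.14, Arntl at -0.01 and Nr1d1 at -0.02. With ERCC scaling, which moved the median over all genes tested to 0.18, Cry1 stood at -0.01 and Arntl and Nr1d1 at 0.12 and 0.14. The part of length in the value of Clock was not tested.

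**Figure D3:**
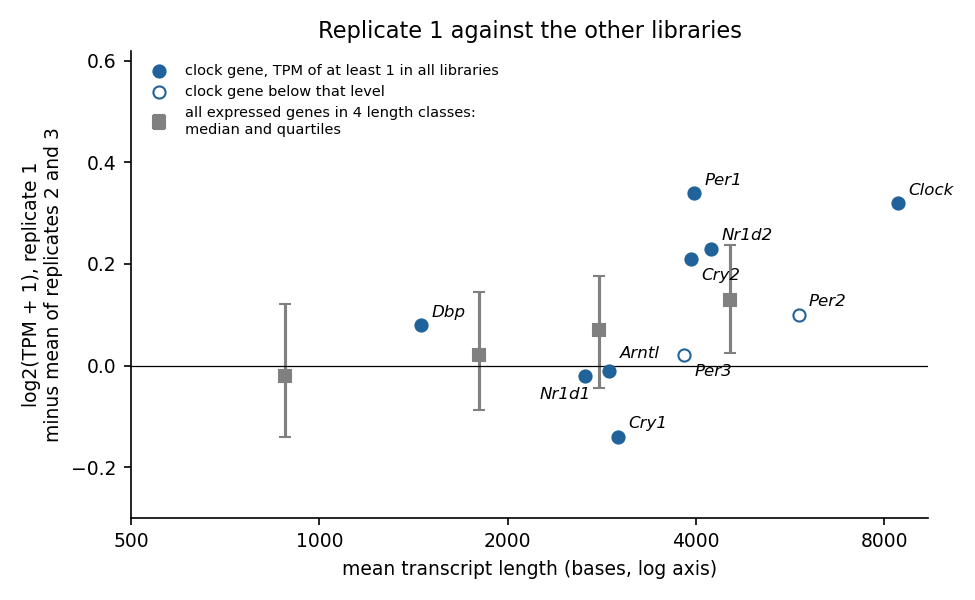
Difference of log2(TPM + 1) between replicate 1 and the mean of replicates 2 and 3 against mean transcript length (log axis), with filled points for expressed clock genes, open points for Per2 and Per3, and grey squares for medians and quartiles of all expressed genes in 4 length classes of 25% each. Clock, Per1, Nr1d2 and Cry2 lie between 0.21 and 0.34, above the median of 0.13 of the longest class, whose upper quartile of 0.237 lies above Nr1d2 and Cry2.

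The deposited quantifications were compared within each library for the 8 genes with a TPM of at least 1 in either table. All 8 were lower in the kallisto-style tables in 3 of 3 libraries, by a mean log2(TPM + 1) difference from -0.22 (Clock, SE 0.0539) to -0.51 (Nr1d2, SE 0.0489). The limma adjusted p ran from 0.00168 (Nr1d2) to 0.0185 (Clock), and 61.3% of the 14790 genes tested were lower in this way. The median difference was -0.37 over the 8 genes and -0.25 over all genes tested. No clock gene reached the minimum difference of 1 that a call required, so limma called 0 of 8 (0 also at an unadjusted p under 0.05 with that minimum), against 13.1% of all genes. Cry1 stood at 22.3 ± 0.230 TPM in the kallisto-style tables and Nr1d2 at 11.2 ± 1.05, so the order of the 4 highest genes was the same there.

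At the level of transcripts, 6 genes had on average at least 87.4% of their TPM on 1 transcript in both tables. In the RSEM-style tables Cry1-201 took 99.1 ± 1.51% of Cry1 TPM, Cry2-201 97.3 ± 2.50% of Cry2, Nr1d1-201 96.8 ± 5.59% of Nr1d1 and Arntl-201 95.7 ± 6.17% of Arntl. Nr1d2-201 took 88.2 ± 2.70% of Nr1d2, and Per2-201 is the transcript that holds all Per2 TPM. The kallisto-style shares of these 6 differed by less than 3 percentage points. Of the 44 annotated transcripts of the 10 genes, 9 were listed at 0 in every library of both tables.

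Clock was divided between 2 transcripts whose coding parts are identical. Clock-205 (9744 bases, start site 76304792) had 5.38, 4.36 and 2.85 TPM in the RSEM-style tables, 62.8 ± 11.7% of the gene. Clock-201 (7478 bases, start site 76304548) had 1.75, 0.850 and 2.09 TPM, or 24.1 ± 11.4%. Both have 23 exons and 2565 coding bases. In the kallisto-style tables the order was turned, with Clock-201 at 56.1 ± 3.97% and Clock-205 at 30.5 ± 5.01%. The log2(TPM + 1) differences were 0.70 for Clock-201 (limma adjusted p = 0.0269) and -0.92 for Clock-205 (limma adjusted p = 0.00350), both short of the minimum of 1, and both passed it with a pseudocount of 0.1. Neither start site's window held any of the letters searched.

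Per1 was divided between start sites. Per1-202 starts farthest upstream, at 69095217, and has 2481 coding bases. It took 54.4 ± 9.45% of Per1 in the RSEM-style tables and 53.8 ± 7.53% in the kallisto-style ones. No promoter window covered its start site, so the letters there were not searched. The long coding form of 3873 bases is annotated from 2 later start sites. Per1-201 starts at 69098948, next to the RefSeq start site at 69098949 of the window that holds the E-box printed above, and had 0, 0 and 1.26 TPM in the RSEM-style tables. Per1-206 starts at 69100158 and had 1.66, 0.99 and 0 TPM there, so each RSEM-style library listed either Per1-201 or Per1-206 but not both. In the kallisto-style tables Per1-201 had a share of 41.9 ± 6.43% and Per1-206 of 0.244 ± 0.423%. With 76 to 114 counts per library for the whole gene, the data do not fix which of these start sites was used.

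Dbp was split between Dbp-204 (1156 bases, 564 coding) and Dbp-201 (1837 bases, 975 coding). The shares of Dbp-204 and Dbp-201 were 46.1 ± 3.40% and 42.2 ± 7.79% in the RSEM-style tables, and 29.3 ± 15.9% and 59.5 ± 16.2% in the kallisto-style ones. Per3, on 54 counts in all, was spread over Per3-204 (a processed transcript, 42.4 ± 37.6%), Per3-202 (a retained intron, 28.8 ± 11.1%) and the coding Per3-201 (23.7 ± 23.0%), and their order differed between libraries. Per3-203, a target of nonsense-mediated decay, had 3.70 ± 6.42% there and 10.1 ± 12.1% in the kallisto-style tables. Of the 11 clock gene transcripts that could be tested, limma called 0 as differing between the quantifications, against 18.9% of 28903 transcripts. Without the minimum difference 9 of 11 passed, 8 lower and 1 higher in the kallisto-style tables. The share over all transcripts was 61.6%, in either direction, and 9 of the 11 had an unadjusted p under 0.05.

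**Figure D4:**
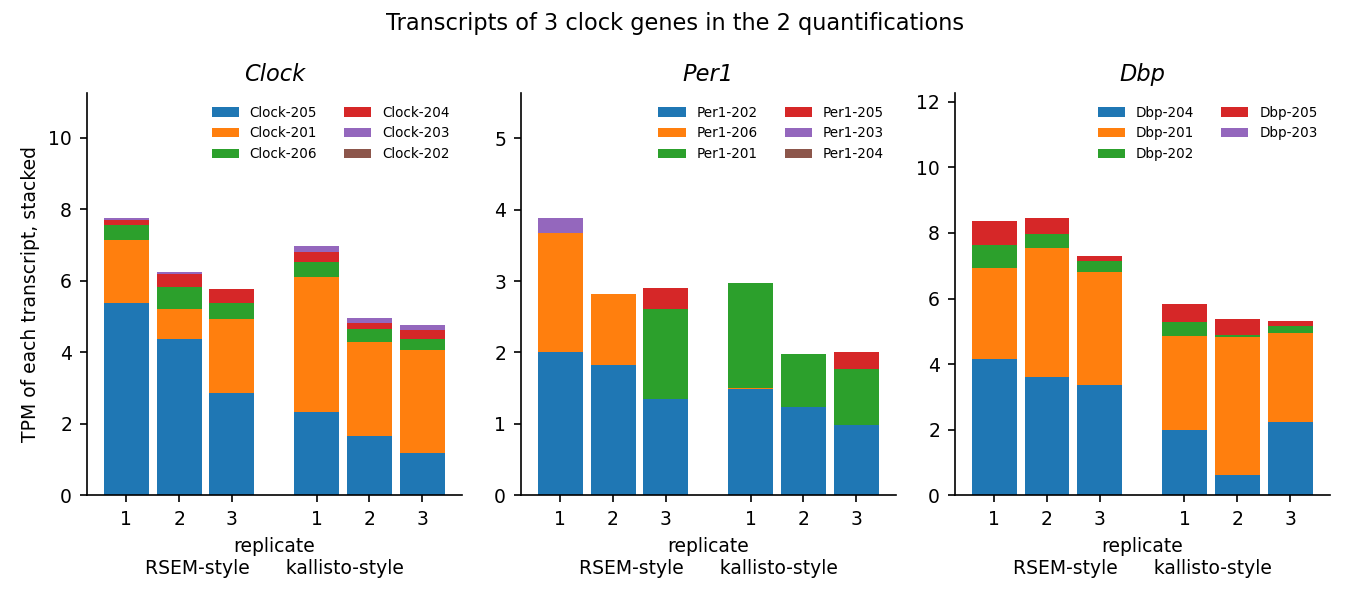
TPM of each annotated transcript of Clock, Per1 and Dbp, stacked, in replicates 1 to 3 of the RSEM-style tables (left bars) and the kallisto-style tables (right bars). Clock-205 leads Clock on the left and Clock-201 on the right, and Per1-206 stands in replicates 1 and 2 on the left, where the other 4 Per1 bars hold Per1-201.

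Several clock genes share their span with another gene, and the strand setting of the counting is not stated in the sources used here. Nr1d1 overlaps the thyroid hormone receptor gene Thra tail to tail on the opposite strand, over 263 exon bases or 8.55% of its own, and Thra stood at 4.82 ± 1.23 TPM. Dbp shares 539 exon bases, 18.0% of its own, with Sphk2, a sphingosine kinase gene on the opposite strand at 15.2 ± 2.15 TPM. Cry2 shares 295 exon bases with D930015M05Rik (0.223 ± 0.204 TPM) and Arntl 33 with Gm45355, which was listed at 0. The part of these shared bases in the values of Nr1d1 and Dbp was not tested, and the shares of exon bases do not bound it. Per3 lies wholly within Camta1, a gene on the same strand at 173 ± 12.6 TPM, and Clock holds the pseudogene Ube2n-ps1 (140 ± 8.73 TPM) and Gm43658 (0.0533 ± 0.0924 TPM) on the same strand, all with 0 shared exon bases. The part of Camta1 introns in the low Per3 value was not tested. Gene counts were whole numbers, within 1e-06, for 9 of the 10 clock genes, Nr1d2 being the other with 549.97, 461.82 and 466.63.

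Of 28 other genes of the clock pathway, in 7 groups by role, 21 were expressed, beside the 52.1% of protein-coding genes given above. The activator paralogs were both below a TPM of 1 in every RSEM-style library: Npas2, which can stand in for Clock, had 0.230, 0.580 and 0.960 TPM, and Arntl2, the paralog of Arntl, 0.380, 0.360 and 0.430. In the kallisto-style tables Arntl2 was above a TPM of 1 in every library (1.705, 1.652 and 1.446). The mean ratio of Arntl to Arntl2 was 25.4 ± 3.23 in the RSEM-style tables and 4.90 ± 0.408 in the kallisto-style ones. Rora and Rorb encode ROR receptors, activators that compete with the REV-ERBs on ROR elements, and neither was expressed by this rule. Rora had 0.440, 1.54 and 0.790 TPM, and Rorb 0.0167 ± 0.0153 TPM on 3 counts in all. The REV-ERB genes together stood at 21.7 ± 1.74 TPM. Beside Dbp, its relative Tef reached 10.8 ± 0.359 TPM and Hlf 0.323 ± 0.123 TPM, while Nfil3, which represses through the same D-boxes, stood at 7.24 ± 0.434 TPM. The ratio of Nfil3 to Dbp was 0.907, 0.872 and 0.925 in the RSEM-style tables and 1.08, 0.982 and 1.01 in the kallisto-style ones, so the order of the pair was not the same in the 2 kinds of table in replicates 1 and 3.

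All 3 other repressors were expressed. Bhlhe40, an E-box repressor, stood at 27.8 ± 1.34 TPM and Ciart at 25.5 ± 2.00 TPM, near Cry1, and Bhlhe41 at 1.62 ± 0.117 TPM. Of 7 kinases and ubiquitin ligases that set the stability of PER and CRY proteins, 6 were expressed. Fbxw11, a ligase subunit for PER, stood at 76.5 ± 3.10 TPM and the casein kinase gene Csnk1e at 74.7 ± 3.31, with overlapping libraries. In the kallisto-style tables Csnk1e (68.2 ± 3.49) was above Fbxw11 (53.8 ± 1.76). Fbxl21, a ligase subunit for CRY, was lowest, with 2.42, 0.98 and 0.83 TPM, so only replicate 1 was above 1. Its kallisto-style TPM was above 1 in every library (1.796, 1.566 and 1.511). All 6 partners and corepressors were expressed, from Nono at 432 ± 13.9 and Wdr5 at 164 ± 6.28 TPM, both found with PER proteins, to the histone demethylase gene Kdm5a at 38.5 ± 0.351. The 4 clock-controlled outputs were expressed too, with the NAD salvage gene Nampt at 70.2 ± 3.00, the mitotic kinase gene Wee1 at 47.7 ± 2.47 and the deubiquitinase gene Usp2 at 6.95 ± 0.933 TPM.

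**Figure D5:**
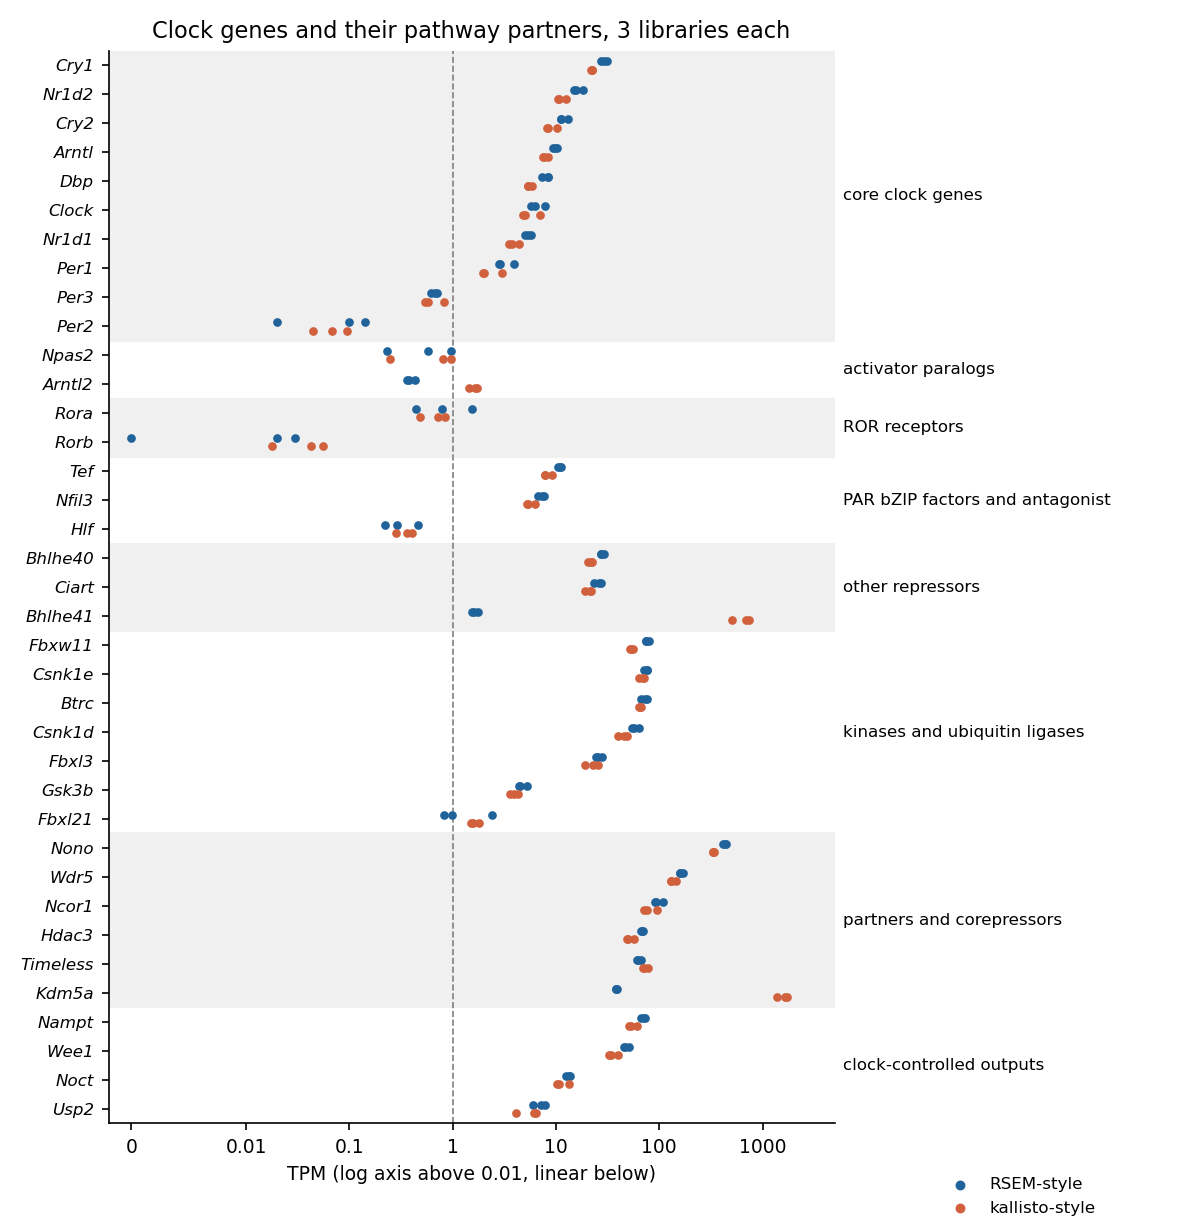
TPM of the 10 core clock genes and the pathway genes reported here in the 3 libraries (log axis above 0.01), by the RSEM-style tables (blue) and the kallisto-style tables (orange), grouped by role. Nono and Wdr5 lie highest in the RSEM-style tables, the activator paralogs, Rora and Rorb lie near or below a TPM of 1, and Bhlhe41 and Kdm5a are far apart between the tables.

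Of the 21 pathway genes tested for spread, edgeR called 0 as variable, with 0 at an unadjusted p under 0.05 and 0 by limma-voom. Beyond counting noise were 2 of 21, against 12.4% of all genes: Nono (chi-square adjusted p = 7.24e-13 with edgeR's TMM scaling) and Ncor1, a corepressor gene named after its value was seen (0.00552). Between the quantifications, limma called 2 of 23 pathway genes, against 13.1% of all genes. Both were higher in the kallisto-style tables, as were 1583 of the 1932 genes called. Bhlhe41 stood at 647 ± 121 TPM there, a log2(TPM + 1) difference of 7.93 (limma adjusted p = 7.33e-06), nearly all of it on Bhlhe41-201. Kdm5a stood at 1589 ± 175 TPM, a difference of 5.32 (limma adjusted p = 6.53e-06), with 1582 ± 174 TPM on Kdm5a-205, a retained-intron transcript of 689 bases. Which table is nearer to the RNA present was not tested. None of the 10 core clock genes differed by such an amount.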

How the data were processed

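Each of the 3 F121-9 libraries has 1 gene table and 2 transcript tables on mm10 (GENCODE M21), per the file headers and the notes deposited with them. No quantifier, aligner, version or strand setting is stated in the sources used here. Deposited expected counts (estimated counts per gene or transcript, unnormalized) were rounded to whole numbers for the count tests. The deposited TPM values were scaled by the authors' programs over all features of a library. Rows of spike-ins and the 26248 rows with tRNA numbers, which took 0.000133% to 0.000160% of the counts, entered neither the library sizes nor the tests.

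Kallisto-style TPM was summed per gene. Spread between libraries was tested with edgeR 4.0.16 (R 4.3.3) on the whole table, after filterByExpr and TMM scaling: a quasi-likelihood model with an intercept alone was fitted, and the raw dispersion of each gene was compared with its trended prior through the F distribution. A chi-square test on the same genes compared the spread with Poisson noise. Quantifications were compared with limma 3.58.1 on the difference of log2(TPM + 1) within a library, for features that reached a TPM of 1 in either table of every library. A call needed a mean difference of at least 1 and an adjusted p under 0.05. This scale understates changes of low genes. Adjusted p-values are Benjamini-Hochberg values over all features tested, and the p of the sign-flip tests are unadjusted. Alternatives used DESeq2 1.42.0 size factors, ERCC totals, limma-voom, no count filter, other thresholds and pseudocounts, and leaving out each replicate. Scripts were tested on simulated data. There edgeR's spread test recovered 4% of genes raised 1.5-fold in a single library and 70% of those raised 2-fold. The simulated dispersion was below the common dispersion of these libraries (0.00303). The remaining values were computed with scipy 1.17.1, pandas 2.3.3 and numpy 2.4.6 (Python 3.11.15).

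The clock genes, the pathway and marker lists and the tests were chosen with earlier results of these data known. All 10 clock genes are named, with the 2 highest and the lowest of each pathway group by mean TPM (an item that this rule takes is not reported here), the 3 genes nearest to the highest clock gene, genes that overlap a clock gene, and transcripts of at least 10% of a gene in either table.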

Additional observations from a re-analysis of the deposited data

How the results depend on the processing

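Expressed clock genes numbered 7 to 9 of 10 over the alternatives (other TPM thresholds, kallisto-style TPM, a replicate left out), and expressed pathway genes 19 to 23 of 28. Clock genes called variable numbered 0 under every alternative run, which does not show that their levels were equal between libraries. Clock genes beyond counting noise numbered 4 with ERCC scaling (Clock, Per1, Cry2 and Nr1d2, where 34.7% of all genes tested were called), 2 with kallisto-style counts (Clock and Per1, against 17.6%), and 0 to 2 when each replicate was left out. The 0 came without replicate 1 (0.200% of all genes) and the 2 (Clock and Cry1) without replicate 3. Without a minimum difference 8 genes and 9 transcripts differed between the quantifications, and with a pseudocount of 0.1 the number of transcripts was 2. Overlapping neighbours numbered 2 pairs in the kallisto-style tables and 0 to 1 when each replicate was left out, with 0 both without replicate 1 and without replicate 3. The median log2 value of replicate 1 against the others over the expressed clock genes was 0.05 with TMM-scaled CPM and 0.22 with kallisto-style TPM, where the median over all expressed genes was 0 and 0.14. In these cases the cause was not tested. Means of 7 of 10 clock genes moved by over 1 SD in the kallisto-style tables, all downwards, as did 0 of 30 means with a replicate left out. Among the leading transcripts of the RSEM-style tables, the shares of Clock-205 and Dbp-204 moved by over 1 SD with the tables. No paired analysis was possible because there is 1 group (values of the same library were paired by construction). Depth limits Per2 and Per3 most, on 11 and 54 counts in all.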

Other observations

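Retained-intron transcripts are annotated for 6 of the 10 clock genes, 12 transcripts in all, and 10 of them were above 0 in the RSEM-style tables. Their share of the gene's TPM was highest in Per3, at 30.2 ± 9.61% (SD, n = 3), a gene of 54 counts. In Nr1d2 the share was 14.6, 11.5 and 9.21% in replicates 1, 2 and 3, and in Dbp 17.3, 10.9 and 6.98%. The kallisto-style tables gave 11.9, 13.8 and 12.3% for Nr1d2 and 16.6, 10.3 and 6.84% for Dbp, so the order of the libraries was the same in both tables for Dbp and differed for Nr1d2. Clock had 8.23 ± 2.40%, Cry1 0.870 ± 1.51% and Arntl 0.837 ± 0.746%. These values are a description of 1 group and no test was made.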
